A study of Homo sapiens with 4 samples.

Results

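In mutant NIPBL cells, 34 of 18864 protein-coding autosomal genes reached 2 CPM or more in both mutant libraries while lying below 0.5 CPM in both wild-type libraries. CPM are the reads assigned to a gene, scaled to the same library total in all samples. These cuts correspond to 63.1 to 66.3 reads and 15.8 to 16.6 reads per library. The 34 genes are therefore chosen by the levels described here, and their differences between genotypes are given as a description, with no test. The libraries come from 293FT, an established line that descends from human embryonic kidney cells, expresses the SV40 large T antigen and is kept in serum-containing medium. 2 libraries carry the label NIPBLmut and 2 the label NIPBLwt, and no other treatment is named for either genotype. The nature of the NIPBL mutation, the number of clones and whether replicates were separate cultures are not given in the labels, so p-values cover the spread among 4 libraries that may be technical replicates. Library totals lay between 31545743 and 33161120 expected counts. NIPBL itself was at 64.6 and 65.8 CPM in mutant libraries, against 41.1 and 40.05 CPM in wild-type libraries. Its log2 fold change of 0.51 (SE 0.11) did not pass the edgeR threshold (adjusted p = 0.057), and with an unknown mutation its level does not check the labels.

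NIPBL loads cohesin, the ring complex that folds chromosomes into loops and thereby brings distant enhancers near promoters or keeps them apart. Loss of function in NIPBL is the commonest known cause of Cornelia de Lange syndrome, whereas CHOPS syndrome arises from changes in AFF4, a scaffold of the super elongation complex that releases paused RNA polymerase. Genes that a cell line leaves unused are mostly those of other tissues, such as neuronal, muscle or immune genes, which lack their activators or sit in repressive chromatin.

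The words silent and on need a measure. In wild-type libraries the 34 genes held 0 to 16.06 expected counts each, and 2 of them, GDA and AC008878.3, had none in either library. Their group mean lay between 2.06 and 14.35 CPM (median 3.09) in mutant and between 0 and 0.464 CPM (median 0.249) in wild type. The genes were thus weakly on: the median protein-coding gene at 2 CPM or more in both mutant libraries was at 32.1 CPM, and the median of the 34 exceeded only 3.44% of such genes. 15 of the 34 had a mutant mean under 3 CPM, 11 lay at 3 to 5 CPM and 8 at 5 CPM or more. Summed over the 34 genes, mutant libraries held 149 and 159 CPM and wild-type libraries 9.28 and 7.05 CPM. In bulk RNA, a few cells with much of a transcript and many cells with little of it cannot be told apart.

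For the 32 genes with wild-type reads, the ratio of the mutant to the wild-type mean CPM ran from 4.57 (CD8A) to 101.5 (TENM2), with a median of 15.3. It was 10 or more for 23 genes and 30 or more for 7. The mutant replicates had a median ratio of 1.12 between the higher and the lower library, a largest ratio of 1.68 and 31 of 34 genes under 1.5. In wild type, replicate 1 was above replicate 2 at 25 genes, equal at 2 and below it at 7. All 34 genes passed the filter on low counts through their mutant level and were called higher by edgeR, where 3.71% of the 18984 tested genes were called higher and 2.1% lower. Since the rule used this contrast, nothing is read from that count.

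**Figure D1:**
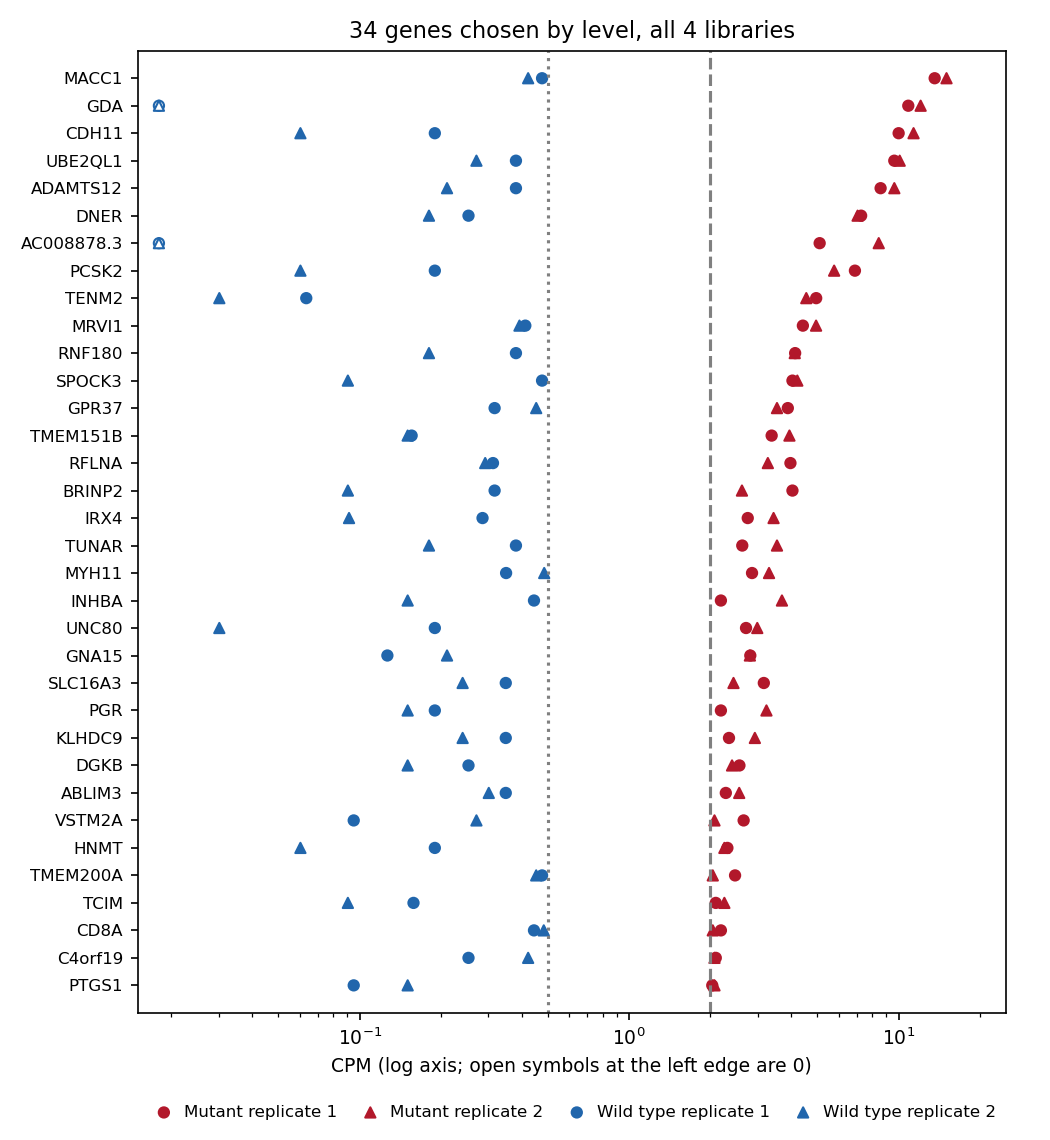
CPM of each of the 34 genes (rows) in every library on a log axis, mutant libraries in red and wild-type libraries in blue, with genes ordered by mutant mean. The mutant values lie between 2.04 and 15.1 CPM and the wild-type values below 0.5 CPM. The separation between the genotypes follows from the rule, which also removes genes with 1 mutant library under the high cut.

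The highest of the 34 in mutant cells was MACC1 (ENSG00000183742, chromosome 7, 20134655 to 20217404, minus strand, GRCh38), a regulator known for raising transcription of the MET receptor in colon cancer. It was at 13.6 and 15.1 CPM in mutant libraries, against 0.476 and 0.422 CPM in wild-type libraries, or 14.35 ± 1.02 and 0.449 ± 0.0377 CPM (SD, n = 2 each). GDA (ENSG00000119125, chromosome 9, 72114595 to 72257193, plus strand), the guanine deaminase of purine breakdown, was at 10.9 and 12.1 CPM in mutant libraries and had no read in either wild-type library. Against a floor of 3 counts per library that is at least 124-fold higher. AC008878.3, the other gene without wild-type reads, was at 5.1 and 8.45 CPM in mutant libraries, but it shares exons on the same strand with ARHGEF18, at 49.0 and 43.6 CPM in mutant and 42.4 and 53.6 CPM in wild-type libraries. The estimated split of reads between those genes makes AC008878.3 uncertain.

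The 250 bases upstream of the annotated start are shown for 4 of the genes, MACC1 and GDA as the most abundant, and UNC80 and PCSK2 for their denser CpG. That choice ties no gene type to CpG. Windows of other neuronal or secreted genes of the list held from 1 (TENM2) to 35 (TUNAR). They are RefSeq promoter windows on GRCh38.p14, 5′ to 3′ on the gene's strand, with CpG dinucleotides in capitals, the site of DNA methylation in mammals. MACC1 covers chr7:20217385-20217634 (minus strand, 4 CpG), GDA chr9:72149190-72149439 (plus strand, 12 CpG), UNC80 chr2:209771582-209771831 (plus strand, 27 CpG) and PCSK2 chr20:17225857-17226106 (plus strand, 22 CpG).
MACC1: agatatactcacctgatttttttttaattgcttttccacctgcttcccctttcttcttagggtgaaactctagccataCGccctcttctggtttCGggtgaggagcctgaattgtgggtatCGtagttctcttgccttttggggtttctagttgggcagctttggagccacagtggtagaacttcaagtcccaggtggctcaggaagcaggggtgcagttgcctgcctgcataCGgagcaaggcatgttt
GDA: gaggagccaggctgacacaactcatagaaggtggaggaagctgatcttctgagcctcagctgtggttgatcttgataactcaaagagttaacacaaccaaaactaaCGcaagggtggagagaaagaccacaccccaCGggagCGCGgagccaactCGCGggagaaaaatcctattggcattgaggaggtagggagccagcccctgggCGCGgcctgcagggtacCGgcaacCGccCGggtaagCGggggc
UNC80: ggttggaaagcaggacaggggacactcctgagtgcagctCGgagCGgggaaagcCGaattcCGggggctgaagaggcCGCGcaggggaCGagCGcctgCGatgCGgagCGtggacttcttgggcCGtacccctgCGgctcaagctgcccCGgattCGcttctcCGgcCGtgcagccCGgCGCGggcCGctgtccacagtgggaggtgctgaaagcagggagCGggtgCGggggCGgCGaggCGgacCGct
PCSK2: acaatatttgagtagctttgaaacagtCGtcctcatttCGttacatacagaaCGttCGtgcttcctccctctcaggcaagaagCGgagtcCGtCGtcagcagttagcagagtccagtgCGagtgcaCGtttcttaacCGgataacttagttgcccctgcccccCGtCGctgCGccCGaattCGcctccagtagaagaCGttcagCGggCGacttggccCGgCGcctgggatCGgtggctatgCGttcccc
The MACC1 window is poor in CpG and the UNC80 window rich in it. Among the 23 of the 34 genes found in the RefSeq table, the windows held 1 to 43 CpG and a GC content of 29.2% to 85.6%. The lowest CpG count, 1, came from TENM2, INHBA and VSTM2A, and the lowest GC content from TENM2. Their RefSeq start minus GENCODE start was -211557, -2744 and 3836 bases, so these windows may not be the promoters used. The RefSeq start of GDA lies 34845 bases inside the gene as GENCODE bounds it, so the window shown is 1 of its possible promoters. Methylation was not measured, and with 67.6% of the genes matched, under the 80 percent needed here, promoter composition was not compared with other genes.

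4 adhesion or secreted matrix proteins are described first. CDH11 (ENSG00000140937, chromosome 16), a cadherin of mesenchymal cells, was at 10.0 and 11.4 CPM in mutant libraries, against 0.19 and 0.0603 CPM in wild-type libraries, and had the highest length-scaled level of the 34 at 4.16 ± 0.778 TPM in mutant and 0.035 TPM in wild type (means, SD over n = 2). ADAMTS12, a secreted metalloprotease that cleaves matrix proteins, was at 8.58 and 9.65 CPM in mutant libraries, against 0.38 and 0.211 CPM in wild-type libraries. TENM2, a teneurin that joins neurons across the synapse, was at 4.95 and 4.55 CPM in mutant libraries, against 0.0634 and 0.0302 CPM in wild-type libraries, which are 2 reads and 1 read. Its ratio of 101.5 rests on those 3 wild-type reads. SPOCK3, a secreted proteoglycan of the testican family, was at 4.04 and 4.21 CPM in mutant libraries, against 0.476 and 0.0905 CPM in wild-type libraries. Both mutant libraries stood close together at each of these genes, while SPOCK3 and CDH11 differed several-fold between the wild-type libraries, at few reads.

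6 genes known from the nervous system or as secreted proteins are described next, of which DNER and PCSK2 belong to a class of neural adhesion or granule genes. DNER, a transmembrane protein of neurons with Notch-like repeats, was at 7.27 and 7.05 CPM in mutant libraries, against 0.254 and 0.181 CPM in wild-type libraries. PCSK2, the convertase that cuts prohormones in secretory granules, was at 6.89 and 5.77 CPM in mutant libraries, against 0.19 and 0.0603 CPM in wild-type libraries. BRINP2, a gene expressed in the nervous system, was at 4.04 and 2.62 CPM in mutant libraries, against 0.317 and 0.0905 CPM in wild-type libraries. Its mutant replicates were among the 3 pairs that differed by 1.5 times or more. TUNAR, first described as a long noncoding RNA of neural differentiation and now annotated as coding, was at 2.63 and 3.54 CPM in mutant libraries, against 0.38 and 0.181 CPM in wild-type libraries. GPR37, an orphan receptor of brain, was at 3.88 and 3.54 CPM in mutant libraries, against 0.317 and 0.452 CPM in wild-type libraries. VSTM2A, a secreted immunoglobulin-domain protein, was at 2.66 and 2.08 CPM in mutant libraries, against 0.0951 and 0.271 CPM in wild-type libraries. Apart from DNER and PCSK2, these genes were under 5 CPM in both mutant libraries.

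UNC80 encodes a large subunit of the sodium leak channel complex built around the pore protein NALCN. It was at 2.72 and 2.99 CPM in mutant libraries, against 0.19 and 0.0302 CPM in wild-type libraries. Other parts of that complex were not on the list. They are named because their values had been seen, so their tests give no support to a pattern of the complex. NALCN was at 12.3 and 12.5 CPM in mutant libraries, against 0.539 and 0.302 CPM in wild-type libraries, and missed the list through 1 wild-type library. It rose by 4.71 log2 units (SE 0.285, edgeR adjusted p = 0.0086). FAM155A, another subunit, was at 12.9 and 12.3 CPM in mutant libraries, against 1.24 and 0.694 CPM in wild-type libraries, with a log2 fold change of 3.54 (SE 0.281, edgeR adjusted p = 0.0141). UNC79, the binding partner of UNC80, was at 1.88 and 2.14 CPM in mutant libraries, against 1.08 and 0.633 CPM in wild-type libraries, and was not called (log2 fold change 1.07, SE 0.34, edgeR adjusted p = 0.113). Leaving out wild-type replicate 1 gave UNC79 a log2 fold change of 1.41, and leaving out wild-type replicate 2 gave 0.78. It was called in both of those fits, which have a single wild-type library and call 5909 and 4287 genes higher in all. FAM155B, the X-linked paralog of FAM155A, was at 13.3 and 14.3 CPM in mutant libraries, against 10.3 and 10.6 CPM in wild-type libraries, and was not called (log2 fold change 0.22, SE 0.154, edgeR adjusted p = 0.377). Of these 4 genes, NALCN and FAM155A passed the test.

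Signalling genes included a hormone receptor, a growth factor subunit and enzymes of second messengers. PGR, the progesterone receptor, was at 2.19 and 3.24 CPM in mutant libraries, against 0.19 and 0.151 CPM in wild-type libraries, but at 0.295 TPM in mutant it had the lowest length-scaled level of the list. INHBA, the subunit of activin A, was at 2.19 and 3.69 CPM in mutant libraries, against 0.444 and 0.151 CPM in wild-type libraries, with the largest ratio between its mutant replicates. GNA15, a G protein alpha subunit best known from blood cells, was at 2.82 and 2.81 CPM in mutant libraries, against 0.127 and 0.211 CPM in wild-type libraries. DGKB, a diacylglycerol kinase, was at 2.57 and 2.41 CPM in mutant libraries, against 0.254 and 0.151 CPM in wild-type libraries. Each of these was above every wild-type library in both mutant libraries, as the rule requires. MRVI1, a substrate of cGMP-dependent kinase that sits at the inositol trisphosphate receptor, was at 4.42 and 4.94 CPM in mutant libraries, against 0.412 and 0.392 CPM in wild-type libraries. HNMT, which inactivates histamine, was at 2.32 and 2.26 CPM in mutant libraries, against 0.19 and 0.0603 CPM in wild-type libraries. PTGS1, or cyclooxygenase 1, was at 2.04 and 2.08 CPM in mutant libraries, against 0.0951 and 0.151 CPM in wild-type libraries, just inside the high cut.

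The remaining genes have diverse roles. UBE2QL1, a relative of ubiquitin-conjugating enzymes, was the fourth highest at 9.65 and 10.1 CPM in mutant libraries, against 0.38 and 0.271 CPM in wild-type libraries. RNF180, a ubiquitin ligase, was at 4.13 and 4.12 CPM in mutant libraries, against 0.38 and 0.181 CPM in wild-type libraries. RFLNA, a filamin-binding refilin, was at 3.97 and 3.27 CPM in mutant libraries, against 0.313 and 0.293 CPM in wild-type libraries, and shares exons on the same strand with ZNF664 (162 and 177 CPM in mutant, 186 and 209 CPM in wild-type libraries), so its split of reads is uncertain. All of these were above 3 CPM in both mutant libraries. MYH11, the smooth muscle myosin heavy chain, was at 2.86 and 3.31 CPM in mutant libraries, against 0.35 and 0.484 CPM in wild-type libraries. SLC16A3, the lactate exporter MCT4, was at 3.16 and 2.44 CPM in mutant libraries, against 0.349 and 0.241 CPM in wild-type libraries. IRX4, a homeobox factor of the heart ventricle, was at 2.76 and 3.44 CPM in mutant libraries, against 0.286 and 0.0914 CPM in wild-type libraries. IRX4 was the sole one of the 34 in the class of homeobox and related regulators. The last 7, TMEM151B, KLHDC9, ABLIM3, TMEM200A, TCIM, CD8A and C4orf19, had ratios from 4.57 (CD8A) to 23.9 (TMEM151B). Exons of MYH11, SLC16A3, TMEM151B and C4orf19 overlap those of an expressed gene on the other strand (NDE1, CSNK1D, AARS2 and RELL1). The libraries are stranded, but the strand setting of the counting is not given in the sources used here, so reads of such partners may not have been separated.

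The thresholds cut through a continuum. Just inside the high cut lay PTGS1, CD8A and TMEM200A, a membrane protein at 2.47 and 2.05 CPM in mutant libraries, against 0.476 and 0.452 CPM in wild-type libraries. Just outside it lay GPR158, an orphan receptor of brain, at 3.07 and 1.95 CPM in mutant libraries, against 0.285 and 0.271 CPM in wild-type libraries, and FLRT2, a guidance protein, at 1.94 and 2.53 CPM in mutant libraries, against 0.222 and 0.241 CPM in wild-type libraries. Just inside the low cut lay MYH11 and CD8A, the T-cell coreceptor, which was at 2.19 and 2.05 CPM in mutant libraries, against 0.444 and 0.483 CPM in wild-type libraries. 4 genes missed the low cut at the same value, 0.507 CPM in wild-type replicate 1. NELL1, a secreted factor of bone formation, was at 13.1 and 14.1 CPM in mutant libraries, against 0.507 and 0.151 CPM in wild-type libraries. TNFRSF9, a costimulatory receptor of T cells, was at 4.32 and 4.49 CPM in mutant libraries, against 0.507 and 0.332 CPM in wild-type libraries. The secreted matricellular protein NOV was at 3.57 and 3.36 CPM in mutant libraries, against 0.507 and 0.241 CPM in wild-type libraries. KIRREL2, a nephrin-like adhesion protein, was at 2.41 and 2.23 CPM in mutant libraries, against 0.507 and 0.241 CPM in wild-type libraries. NELL1 had a mutant level near the top of the list and stayed outside it by this 1 library.

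The mirrored rule, below 0.5 CPM in both mutant and 2 CPM or more in both wild-type libraries, found 1 gene against 34. It was ZFP82, a zinc finger gene on chromosome 19, at 0.157 and 0.275 CPM in mutant libraries, against 4.22 and 5.13 CPM in wild-type libraries. The pool from which each rule draws was similar. In mutant cells 5176 protein-coding autosomal genes were below 0.5 CPM in both libraries and 12054 were at 2 CPM or more, while in wild type 5701 were below 0.5 CPM and 11357 were at 2 CPM or more. The 34 genes are thus 0.596% of the genes below the low cut in wild type, and ZFP82 is 0.0193% of those below it in mutant. Most genes kept their state, 5071 below 0.5 CPM in all 4 libraries and 11289 at 2 CPM or more in all 4.

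The excess of genes on in mutant held at every pair of cuts tried. With cuts of 0.5 and 1 CPM, chosen after the data were seen, 159 genes were on in mutant alone and 4 in wild type alone, and with 0.5 and 4 CPM the counts were 12 and 1. With cuts of 1 and 2 CPM they were 126 and 4, with 1 and 8 CPM 14 and 2, and with 0.25 and 4 CPM 5 and 0. Applying the cuts to TPM, which divide by transcript length, gave 30 and 2 genes. 6 of those 30, CDH11, PCSK2, KLHDC9, MACC1, ADAMTS12 and GDA, were also among the 34, so which genes qualify depends on the unit far more than how many do. With TMM-scaled CPM the counts were 26 and 2. The cuts fall on total-scaled CPM, on which the median log2 fold change of all tested genes was 0.17, against -0.01 with TMM.

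**Figure D2:**
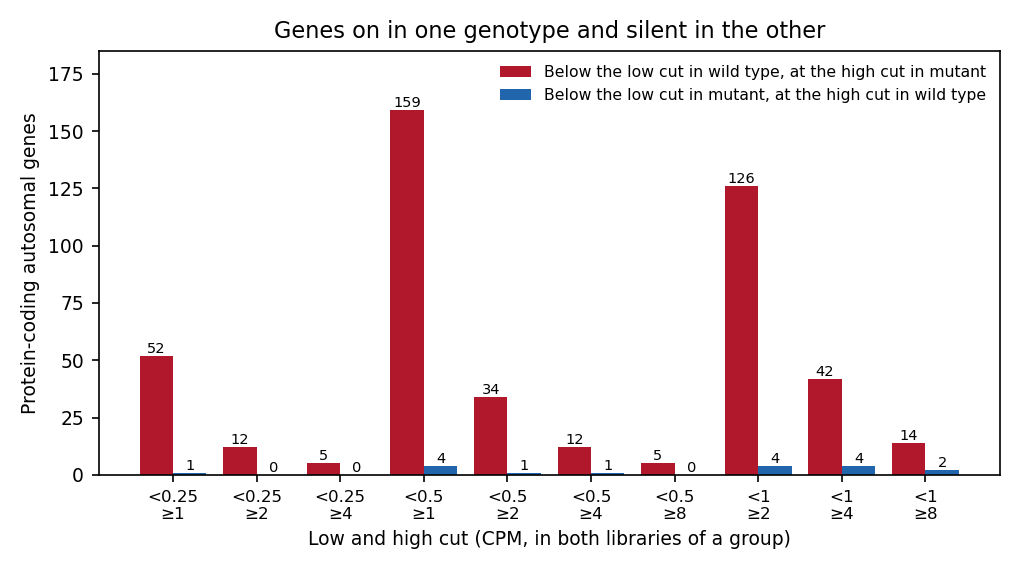
Number of protein-coding autosomal genes below a low cut in both libraries of one genotype and at or above a high cut in both of the other, for each pair of cuts in CPM, with genes on in mutant in red and genes on in wild type in blue. The count of genes on in mutant exceeds the other at every pair, with 34 against 1 at 0.5 and 2 CPM.

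Wild-type replicate 1 limited the list. Between single libraries, 50 and 52 genes were at 2 CPM or more in mutant replicates 1 and 2 and below 0.5 CPM in wild-type replicate 1, but 142 and 153 when wild-type replicate 2 was the low library. In the other direction, below 0.5 CPM in a mutant library and 2 CPM or more in a wild-type library, the 4 pairs gave 5 to 7 genes. Pairs within a genotype gave 1 and 5 genes in mutant and 3 and 9 in wild type. Left without wild-type replicate 1, the rule found 122 genes, and 40 to 46 without 1 of the others. The number of genes called on therefore moved with the library. The direction of the excess was the same in all 4 pairs of a mutant with a wild-type library. Those pairs reuse the same libraries and are not independent.

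**Figure D3:**
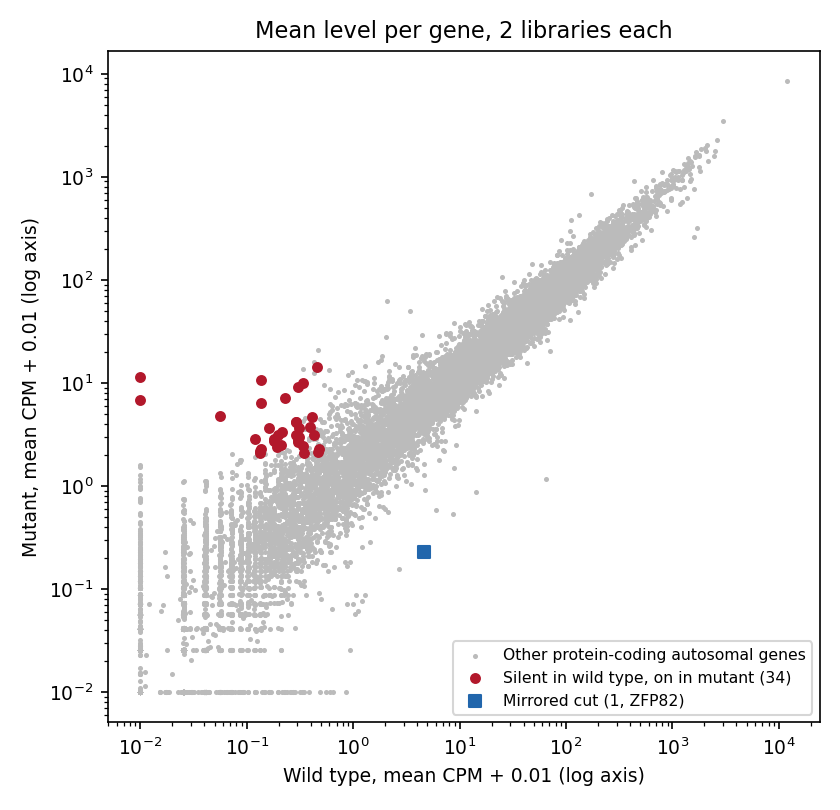
Mean CPM in mutant (vertical axis) against wild type (horizontal axis) for protein-coding autosomal genes, both on log axes after a small constant was added so that 0 can be drawn, with the 34 genes in red and the gene of the mirrored rule in blue. The 34 genes sit at wild-type means of at most 0.464 CPM and mutant means of 2.06 to 14.35 CPM, and 1 gene occupies the mirrored corner.

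By gene class the list was mixed. 20 classes defined by symbol, such as ion channels or zinc finger genes, held 11 of the 34 genes (32.4%), 34.2% of all genes below 0.5 CPM in wild type and 21.4% of all protein-coding autosomal genes. The class share of the 34 was thus close to that of the genes they were drawn from. Neural adhesion held DNER and TENM2, and 9 classes held 1 gene each: CDH11 among cadherins, ADAMTS12 in matrix, PCSK2 among granule genes, GPR37 among receptors, INHBA among growth factors, IRX4 among regulators, SLC16A3 among carriers, CD8A among immune genes and MYH11 among muscle genes. Ion channels, with 130 genes below the low cut in wild type, gave none. Nor did the 379 olfactory receptors, which were all below the low cut, the 50 such keratins, the 108 such germline genes or the 45 such clustered protocadherins. The zinc finger genes, with 84 below the low cut, gave none either, and hold the single mirrored gene. Of all genes below the low cut in wild type, 0.596% were among the 34. At that share classes of these sizes would hold few or none, so nothing is read from these zeros.

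The rest of each class, which the rule did not choose, was read from the edgeR fit, in which 4.17% of tested protein-coding autosomal genes were called higher and 2.51% lower. Of the ion channels 27 of 159 tested genes (17.0%) rose and 1 fell, with a median log2 fold change of 0.54. Growth factors and cytokines had 15 higher and 1 lower of 125, matrix genes 15 and 3 of 145, neural adhesion genes 11 and 2 of 111, and cadherins 6 and 1 of 48. Non-olfactory receptors had 12 higher and 3 lower of 129, carriers 19 and 6 of 285, and muscle genes 2 and 1 of 34. Immune receptors had 16 higher of 130, synaptic genes 7 of 71 and keratins 3 of 5. Receptor tyrosine kinases had 5 higher and 2 lower of 50, P450 and related enzymes 8 and 2 of 75, germline genes 5 and 2 of 77, serpins and proteases 6 and 1 of 65, and cyclases with phosphodiesterases 5 and 1 of 34. Of 9 tested clustered protocadherins edgeR called 0 (2 at an unadjusted p under 0.05, 0 called by DESeq2), with a median log2 fold change of 0.0035. Developmental regulators had 9 higher (3.32%) and 12 lower of 271, and zinc finger genes 9 (1.74%) and 21 of 518. Their median log2 fold changes were near 0, at -0.013 and -0.043. Such counts differ by starting level. Of tested genes other than the 34 with a wild-type mean under 1 CPM, 229 of 1576 (14.5%) were higher and 7 lower. Of those at 1 CPM or more, 318 of 12310 (2.58%) were higher and 343 (2.79%) lower. Genes under 1 CPM in wild type can pass the filter on low counts through their mutant level, which favours rises (median log2 fold change 1.05). Their skew is therefore partly built in and gives no support to a general rise of low genes. The part of the starting level in the class counts was not tested.

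The 34 genes were long. The genomic span from first to last annotated base had a median of 95.3 kb, with quartiles of 33.8 and 200.9 kb and a range from 1.85 kb (TCIM) to 979 kb (TENM2). 17 of the 34 spanned 100 kb or more and 6 (17.6%) 300 kb or more, among them DGKB at 830 kb and SPOCK3 at 501 kb. Only TCIM, KLHDC9 and IRX4 were under 10 kb. The 5667 other genes below 0.5 CPM in wild type had a median span of 13.9 kb, and 11.2% of them reached 100 kb. The 11289 genes on in all 4 libraries had a median of 35.7 kb and 20.9% at 100 kb or more.

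A cut on reads is reached at a lower molar level by a long transcript, so it favours length. The median transcript length, as deposited and weighted by isoform, was 2536 bases for the 34 genes, 1420 bases for the other genes below the low cut in wild type and 2150 bases for genes on in all 4 libraries. Selected on TPM instead, the 30 genes, 6 of them also among the 34, had a median span of 99.8 kb, and 15 reached 100 kb. That set was chosen on the same contrast, and the part of transcript length in the span was not tested. The 469 genes below the low cut in wild type with a mutant mean of 0.5 to under 2 CPM had a median of 29.5 kb and 22.8% at 100 kb or more. That set can include genes with little rise. Genes called higher by edgeR other than the 34 had a median of 42.0 kb and 30.2% at 100 kb or more, and genes called lower 33.6 kb and 19.4%.

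**Figure D4:**
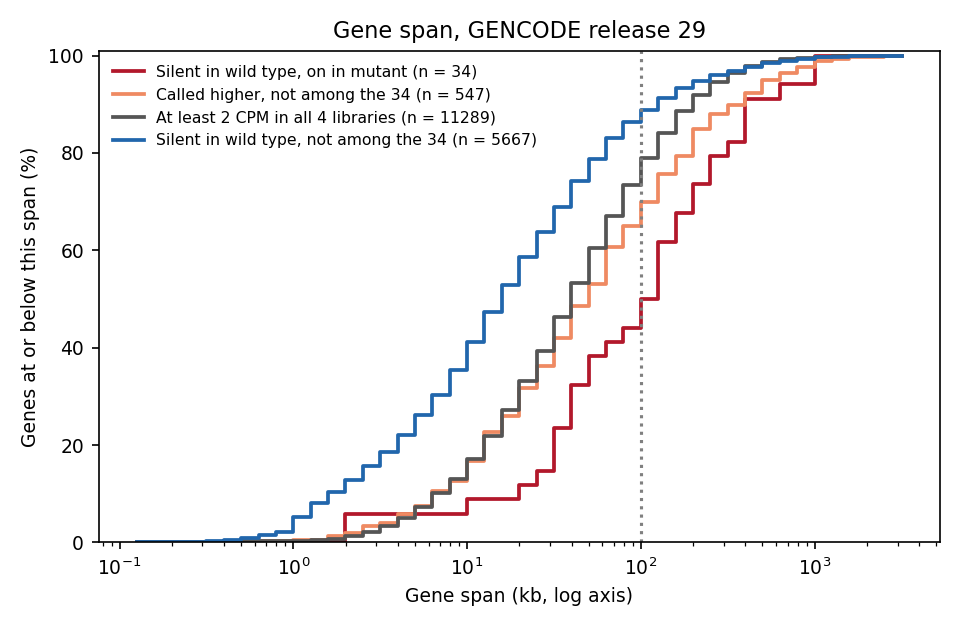
Cumulative share of genes (vertical axis, percent) by genomic span in kb on a log axis, for the 34 genes, the genes called higher outside the list, the genes on in all 4 libraries and the other genes below 0.5 CPM in wild type, with a dotted line at 100 kb. The curve of the 34 genes lies furthest right over most of the range, with a median of 95.3 kb against 42.0, 35.7 and 13.9 kb.

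The list was scattered over the genome. The 34 genes lay on 15 of 22 autosomes, 21 on the plus and 13 on the minus strand. Chromosome 5 held 6 of them (UBE2QL1, ADAMTS12, TENM2, RNF180, IRX4 and ABLIM3), or 2.14% of its 280 genes below the low cut in wild type, and chromosome 7 held 5 (MACC1, GPR37, INHBA, DGKB and VSTM2A), or 1.91% of 262. Chromosome 2 held 4, and no other chromosome more than 2. No pair lay within 1 Mb. The closest were AC008878.3 and GNA15 at 4.22 Mb, then UBE2QL1 and IRX4 at 4.56 Mb and MACC1 and DGKB at 5.16 Mb, and the median distance to the nearest other gene of the list was 27.0 Mb over the 29 genes with 1 on the same chromosome. The surrounding regions leaned in no common direction. For each of the 34, the median log2 fold change was taken over up to 25 tested protein-coding neighbours on either side. These values had a median of 0.03, with 6 regions above 0.2 and 5 below -0.2. Near a chromosome end fewer were at hand, 47 around UBE2QL1, 44 around IRX4 and 40 around SLC16A3. The regional median was lowest around HNMT (-0.56), where 10 of 50 neighbours were called lower and 1 higher. It was highest around ADAMTS12 (0.46), where 11 of 50 were called higher and 0 lower. Around UBE2QL1 and IRX4, on the same arm of chromosome 5 as ADAMTS12, it was 0.34 and 0.34. The windows of UBE2QL1 and IRX4 share neighbours toward the chromosome end, so their values are not independent. Regions above 0.2 thus include several on that arm, and those below -0.2 several on chromosome 2 (HNMT, DNER and UNC80). Around DNER and UNC80 on chromosome 2 it was -0.44 and -0.44, so these genes were on in mutant within regions whose median was negative.

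The nearest tested protein-coding gene on each side, which the rule did not choose, was read for whether neighbours moved too. Such genes lay up to 3770 kb away (MAT2B from TENM2), and 6 of them overlapped the gene of the list, with 0 of those called. Of 68 such genes 8 (11.8%) were called higher and 2 (2.94%) lower, with a median log2 fold change of 0.06, against 3.94% and 2.52% of all tested protein-coding autosomal genes outside the list. Within 500 kb the counts were 12 (5.24%) higher and 5 (2.18%) lower of 229. The higher flanking genes were mostly low ones. Of 11 flanking genes with a wild-type mean under 1 CPM, 5 (45.5%) were higher, where 14.5% of all such genes were. Of the other 57, 3 (5.26%) were higher, where 2.58% were. Both shares under 1 CPM include genes that can pass the filter on low counts through their mutant level, which favours rises. The count of 8 became 4 without either mutant library and up to 27 without a wild-type library, so its size depends on the libraries used.

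**Figure D5:**
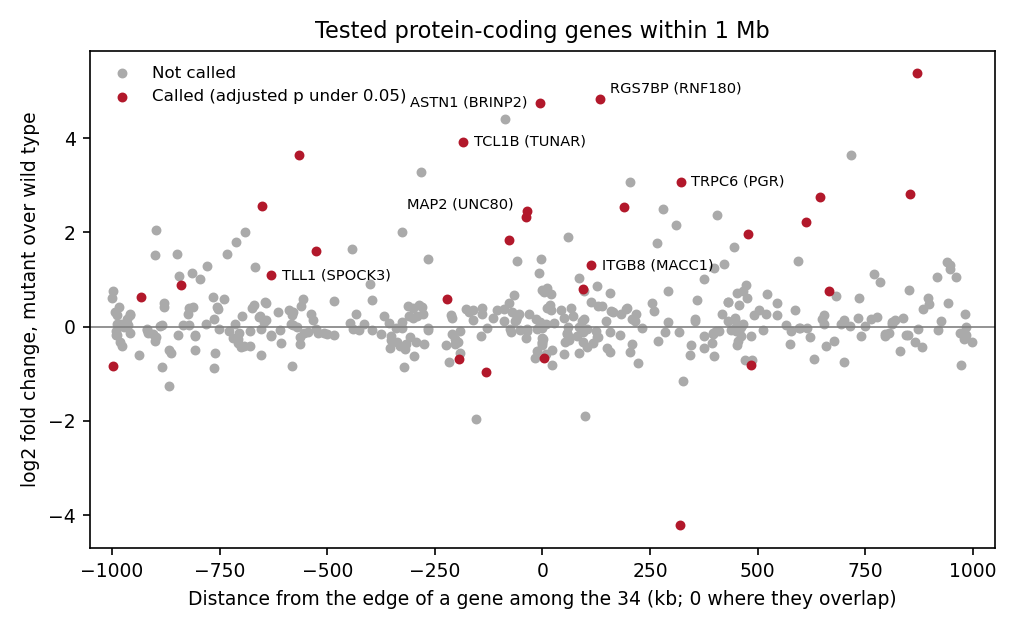
Log2 fold change (mutant over wild type, vertical axis) of each tested protein-coding gene within 1 Mb of a gene of the list, against its distance in kb, with called genes in red and others in grey, and with the name of its neighbour on the list in brackets for called nearest genes of at least 1 log2 unit. Most points lie near 0. Some genes of the list have several called genes within 1 Mb, such as UNC80 with MAP2, RPE, ACADL and CPS1. The labelled points are led by RGS7BP at 4.83 and ASTN1 at 4.75. The highest called point, TMEM132B near RFLNA at 5.37, is not a nearest gene and has no label.

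ASTN1 stood out among the flanking genes. It encodes astrotactin, a neuronal protein of glial-guided migration that belongs to the same superfamily as the BRINP proteins, and starts 6.52 kb from BRINP2 on the opposite strand, head to head. It was at 13.3 and 13.1 CPM in mutant libraries, against 0.697 and 0.181 CPM in wild-type libraries, with a log2 fold change of 4.75 (SE 0.466, edgeR adjusted p = 0.0229). BRINP2 was thus the weaker of that pair in mutant cells. TRPC6, a calcium-permeable channel 321 kb from PGR, was at 2.28 and 1.89 CPM in mutant libraries, against 0.222 and 0.211 CPM in wild-type libraries (log2 fold change 3.08, edgeR adjusted p = 0.027). RGS7BP, which anchors a regulator of G protein signalling and lies 133 kb from RNF180, was at 1.13 and 1.07 CPM in mutant libraries, against 0.0634 and 0 CPM in wild-type libraries (edgeR adjusted p = 0.0362). TCL1B, a gene of the TCL1 family 184 kb from TUNAR, was at 1.69 and 2.1 CPM in mutant libraries, against 0.19 and 0.0274 CPM in wild-type libraries (log2 fold change 3.92, edgeR adjusted p = 0.0368). These genes had few wild-type reads, as those of the list did, and fell short of the high cut in a mutant library or above the low cut in a wild-type one.

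MAP2, a microtubule protein of dendrites 37.9 kb from UNC80, was at 1.88 and 2.01 CPM in mutant libraries, against 0.349 and 0.332 CPM in wild-type libraries (log2 fold change 2.33, edgeR adjusted p = 0.0309). ITGB8, an integrin subunit 113 kb from MACC1, was at 5.67 and 5.92 CPM in mutant libraries, against 1.997 and 2.14 CPM in wild-type libraries (1.31, edgeR adjusted p = 0.0397). TLL1, a metalloprotease 629 kb from SPOCK3, was at 8.11 and 7.62 CPM in mutant libraries, against 3.71 and 2.87 CPM in wild-type libraries (1.09, edgeR adjusted p = 0.0449). The calls of MAP2, ITGB8 and TLL1 were lost without either mutant library, where their log2 fold changes were 2.38 and 2.28, 1.33 and 1.28, and 1.04 and 1.14 without replicates 1 and 2. They were also lost with limma on log2(TPM + 1), with adjusted p of 0.0637, 0.0645 and 0.0604. On the other side of UNC80, RPE, an enzyme of the pentose phosphate pathway, was lower by edgeR (log2 fold change -0.66, adjusted p = 0.0447). The nearest tested genes of UNC80 were thus 1 higher and 1 lower. Beyond RPE, ACADL at 189 kb and CPS1 at 478 kb were also called higher, with log2 fold changes of 2.53 and 1.955. RPE was the only gene called lower among the 6 tested within 500 kb of UNC80.

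AC005083.1, a noncoding transcript (chromosome 7, 20217577 to 20221700) that starts within 0.173 kb of MACC1 on the opposite strand and overlaps 58 bases of the MACC1 window, was at 0.846 and 0.793 CPM in mutant libraries, against 0.0634 and 0 CPM in wild-type libraries. It rose by 4.41 log2 units (SE 0.772, edgeR adjusted p = 0.0416), beside the described difference of MACC1. The antisense transcript AC025183.1 at IRX4 was at 0.689 and 0.61 CPM in mutant libraries, against 0.222 and 0.151 CPM in wild-type libraries, and was not called (log2 fold change 1.62, edgeR adjusted p = 0.0819). AC005083.1 was the 1 called of 7 tested noncoding transcripts that overlap or lie close to a gene of the list, and the 5 others had log2 fold changes from -0.36 (AC026401.3) to 0.50 (CTB-178M22.2).

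None of the 34 genes is in the marker lists of other cell types. Of the fibroblast list 2 of 6 tested genes were higher and 1 lower, with summed levels of 22.92 and 23.01 CPM in mutant libraries, against 15.8 and 9.74 CPM in wild-type libraries, and COL1A2 and FAP at 0 in all 4. The keratinocyte list had 2 of 5 higher, summed to 243 and 247 CPM in mutant and 200.9 and 201 CPM in wild-type libraries, with KRT14 at 0. The neuron list had 3 of 9 higher and 1 lower, with a median log2 fold change of 0.99, while its sum was 163 and 149 CPM in mutant and 254 and 216 CPM in wild-type libraries. The muscle list had 1 of 4 higher, summed to 7.17 and 8.12 CPM in mutant and 5.39 and 5.28 CPM in wild-type libraries. Endothelial, leukocyte and hepatocyte genes summed to at most 6.63 CPM in mutant and 3.08 CPM in wild-type libraries. Markers of the 293 line itself were present in all libraries at 1143 and 1077 CPM in mutant and 1411 and 1449 CPM in wild-type libraries, with 1 of 16 higher and 4 lower. The median and the sum of the neuron list thus differ in direction. The part of these markers in the results was not tested.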

How the data were processed

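RNA-seq of 4 libraries was analysed. Ribosomal RNA was removed and directional libraries were prepared, per the labels' protocols. The submitters' processing notes name STAR 2.7.3a, RSEM 1.3.1 and hg38; the annotation release is not given in the sources used here. The authors deposited expected counts, TPM and an isoform-weighted transcript length per gene, per the file headers. CPM were computed here by dividing a gene's expected count by the total of its file. Biotype, position and span came from GENCODE release 29 (57836 of 58174 identifiers matched). Rounded expected counts were tested with edgeR 4.0.16 (R 4.3.3; filterByExpr, TMM, robust quasi-likelihood) over 18984 genes and called at a Benjamini-Hochberg adjusted p under 0.05. Alternatives used other scalings and filters, DESeq2 1.42.0, limma 3.58.1 on log2(TPM + 1), a replicate block and left-out libraries. The edgeR test was checked on simulated data.

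The members, classes and marker lists were chosen with earlier results of these data known. Named genes followed a rule: NIPBL, the 20 highest of the list by mutant mean, up to 3 per class, those at each cut, the mirrored genes and called flanking genes of at least 1 log2 unit; others named were chosen after their values were seen. Chi-square per gene was 3.97 between the mutant and 44.6 between the wild-type replicates, so the wild-type libraries differed far more. Each library was counted as a sample, but this spread does not show that replicates were separate cultures. Floors cover counting error only, while the SE come from the edgeR fit and include the spread between libraries.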

Additional observations from a re-analysis of the deposited data

How the results depend on the processing

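The list held 26 genes with TMM, 30 on TPM, 36 with chromosome X, 42 with cuts of 1 and 4 CPM, 5 with 0.25 and 4 CPM, and, with cuts chosen after seeing the data, 159 (0.5 and 1 CPM) and 12 (0.5 and 4 CPM); leaving out a library gave 40 to 122. The mirrored count of 1 became 2 with TMM or TPM, 0 with 0.25 and 4 CPM, 4 with 1 and 4 CPM or 0.5 and 1 CPM, and 2 to 4 without a library. The 704 genes called higher became 1112 with total count, 1132 with no filter, 1232 with DESeq2 and 1470 with the replicate block, and 335 to 5909 without a library. The 399 called lower became 786 with no filter, 1117 with DESeq2, 119 with limma on TPM, 809 with the replicate block and 64 to 5931 without a library. With total count, 1112 were higher and 274 lower; on TPM, 818 and 119. Flanking genes called higher numbered 4 with limma on TPM and 4 to 27 without a library. Those called lower numbered 6 with DESeq2, 5 with the replicate block, 5 within 500 kb and 0 with limma on TPM (4 at an unadjusted p under 0.05), and 0 to 24 without a library. The cause of these shifts was not tested.

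The replicate numbers do not pair the samples (correlation of the replicate differences between genotypes -0.06), so the block is given here only. No direction reversed in any alternative run. The rule chose the 34 genes on this same contrast, so their direction and most of their calls follow from it. The counts of their calls that come next are a description and give no support. Of the 34 genes, 7 lost their edgeR call with limma on TPM (BRINP2, TUNAR, MYH11, UNC80, PGR, DGKB and PTGS1) and 3 without either mutant library (TMEM200A, CD8A and C4orf19); the 8 other settings kept all 34. NIPBL passed with total count, the stricter filter, DESeq2 and without either wild-type library. At 2 libraries per genotype, depth limits wild-type values, since 3 counts are 0.0905 to 0.0951 CPM there.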

Other observations

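Beyond protein-coding genes, 2 of 36061 autosomal genes of other biotypes met the same cuts and 1 met the mirrored ones. FLG-AS1, an antisense gene of the filaggrin region (chromosome 1, 152168125 to 152445456), was at 3.54 and 4.24 CPM in mutant libraries, against 0.444 and 0.211 CPM in wild-type libraries. LINC02212 (chromosome 5, 10493527 to 10502728) was at 2.699 and 3.402 CPM in mutant libraries, against 0.259 and 0 CPM in wild-type libraries. The mirrored LINC01806 (chromosome 2, 161244739 to 161249050) was at 0.188 and 0.244 CPM in mutant libraries, against 4.38 and 3.02 CPM in wild-type libraries. Since the cuts chose them, these levels are a description.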
